A study of Mus musculus with 48 samples.

Results

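The 9 genes described here mark monocytes that leave the blood for an injured tissue and the macrophages they become there: Ccr2, Ly6c2, Cx3cr1, Spp1, Arg1, Gpnmb, Trem2, Fn1 and Vcan. They were picked by gene name, as the 9 of 47561 genes in the deposited table that carry these names, and each has 1 row in it. RNA from whole lung was sequenced in 48 adult mice, 3 in each of 16 groups. The groups joined 2 strains, C57Bl/6 and C3H/hen (here C3H), both sexes, 1 intraperitoneal injection of saline or of 25 mg/kg aurothioglucose (ATG), and 96 h in room air or in hyperoxia (>95% oxygen). The series description names ATG pretreatment for the mice and no saline, whereas the sample labels name the injection of each mouse, and the labels were followed, as they were for the C57Bl/6 substrain, which the sources name differently. ATG is a gold compound that inhibits thioredoxin reductase. All mice were sampled at the same 96 h, so no earlier or recovery stage was measured, and each strain was 1 inbred background. Every mouse has its own number in the labels, and mice are named below by that number.

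Classical monocytes carry the surface antigen Ly6C and the chemokine receptor CCR2, which draws them out of the bone marrow and into inflamed tissue along gradients of CCL2 and related chemokines. Nonclassical monocytes patrol the vessel wall, carry little Ly6C and express more of the fractalkine receptor CX3CR1. In an injured lung, recruited monocytes can become macrophages that clear debris and lipid and that express osteopontin (Spp1), arginase 1 (Arg1), GPNMB and TREM2, while fibronectin (Fn1) and versican (Vcan) are matrix proteins made by such cells and also by stromal cells. In whole lung, fewer cells of a type and less RNA per cell cannot be told apart.

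Levels are given in FPKM, in which the fragments of a gene are divided by its length and by the size of the library. Their sum over all genes ran from 510933 to 748290 per library (median 578563), and the number of reads behind each value is unknown. The lung defining genes were far above 0 in every mouse: Sftpc, a surfactant protein gene, was at 3000 FPKM or more, and the 5 liver genes summed to at most 20.7 FPKM. The sex labels could not be checked, because all 4216 genes of the sex chromosomes and the mitochondrion are listed at 0. A few libraries stood apart. Among the C3H male saline mice in room air, mouse 1 had 30.2% of its summed FPKM in the club cell gene Scgb1a1 and the lowest median correlation with mice of its strain and air (r = 0.926), followed by mouse 3 (r = 0.947). In saline hyperoxia, C3H female mouse 33 (r = 0.951) and C57Bl/6 male mouse 19 (r = 0.951) were the lowest. Several results that rest on these mice are given with and without them, but changes within a single strain were not refitted without them.

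In the mm10 build, Ccr2 lies at chr9:124101950-124113557 and Cx3cr1 at chr9:119901616-120069879, with Ly6c2 at chr15:75108158-75111970, Spp1 at chr5:104435118-104441050, Arg1 at chr10:24915221-24927484, Gpnmb at chr6:49036546-49070929, Trem2 at chr17:48346401-48354147, Fn1 at chr1:71585520-71653200 and Vcan at chr13:89655312-89742509. All are protein coding. Ly6c2 shares 24.3% of its 30-base words with other genes, most of them with its neighbour Ly6c1, so its values are uncertain as a measure of Ly6c2 alone. Spp1 shares 14.4%, all with the gene model Gm42793, and Ccr2 shares 3.6% with other genes. The other 6 share under 2%.

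The 5 genes Gpnmb, Vcan, Trem2, Spp1 and Ly6c2 passed the test for a rise with hyperoxia in each strain of saline mice, and the 250 bases upstream of their RefSeq starts (GRCm38.p6) are shown so that these promoters can be compared. Both strands were searched for 6 short motifs, in which N is any base: the ETS core AGGAAGT, the AP-1 pattern TGANTCA, the E-boxes CACGTG and CATGTG, the antioxidant response element core TGACNNNGC, and TATAAA. Capitals mark a match, and all letters are written 5′ to 3′ on the strand of the gene.
Gpnmb, chr6:49036268-49036517, plus strand: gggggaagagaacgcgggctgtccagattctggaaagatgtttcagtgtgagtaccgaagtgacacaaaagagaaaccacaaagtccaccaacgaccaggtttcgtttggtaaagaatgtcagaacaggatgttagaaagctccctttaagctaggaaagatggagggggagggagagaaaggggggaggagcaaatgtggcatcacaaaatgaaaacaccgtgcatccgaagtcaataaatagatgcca
Vcan, chr13:89742513-89742762, minus strand: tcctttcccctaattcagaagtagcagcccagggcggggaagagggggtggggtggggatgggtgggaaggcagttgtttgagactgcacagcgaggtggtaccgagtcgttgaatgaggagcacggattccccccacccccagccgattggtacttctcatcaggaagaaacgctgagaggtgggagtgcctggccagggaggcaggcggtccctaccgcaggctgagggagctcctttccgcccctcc
Trem2, chr17:48346151-48346400, plus strand: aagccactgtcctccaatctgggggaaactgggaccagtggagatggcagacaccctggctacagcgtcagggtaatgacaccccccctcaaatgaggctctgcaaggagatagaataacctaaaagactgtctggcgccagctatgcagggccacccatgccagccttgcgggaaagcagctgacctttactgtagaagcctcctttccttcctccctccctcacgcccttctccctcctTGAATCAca
Spp1, chr5:104434861-104435110, plus strand: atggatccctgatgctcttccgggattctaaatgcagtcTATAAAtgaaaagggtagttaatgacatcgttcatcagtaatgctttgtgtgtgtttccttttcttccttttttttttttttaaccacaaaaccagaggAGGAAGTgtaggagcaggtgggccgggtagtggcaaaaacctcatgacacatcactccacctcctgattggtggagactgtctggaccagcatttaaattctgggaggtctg
Ly6c2, chr15:75111972-75112221, minus strand: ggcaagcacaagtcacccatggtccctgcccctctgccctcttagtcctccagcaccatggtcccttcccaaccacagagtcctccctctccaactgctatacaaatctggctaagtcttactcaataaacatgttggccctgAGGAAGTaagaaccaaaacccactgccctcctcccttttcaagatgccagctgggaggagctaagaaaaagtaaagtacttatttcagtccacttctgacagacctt

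Trem2 holds the letters TGAATCA, which match the AP-1 pattern only because it allows any base in the middle. Their first base lies 9 bases before the start, and the pattern was found in 6.75% of 32851 mouse promoters of this length. Spp1 holds an ETS core 112 bases and TATAAA 211 bases before its start, motifs found in 7.69% and 12.4% of promoters. Ly6c2 holds an ETS core 107 bases before its start, and a second start of the gene has a further ETS core 7 bases before it. None of the 6 motifs lies in the windows of Gpnmb and Vcan, nor in those of Ccr2 and Cx3cr1, and the Vcan window is the richest in G and C of those shown, at 62.4%. These matches describe the letters only.

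The 9 genes spanned a wide range in the plot of FPKM by mouse. In C57Bl/6 saline mice in room air, the highest median levels per length were those of Ly6c2 (63.7 FPKM), Fn1 (38.9), Spp1 (31.5) and Ccr2 (17.5), and the lowest those of Cx3cr1 (6.04), Trem2 (4.47), Gpnmb (2.96), Arg1 (1.69) and Vcan (1.47). No gene was at 0 in any mouse, and all 9 reached the filter of 1 FPKM in 3 or more mice of every set of 6 with the same strain, injection and air.

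**Figure D1:**
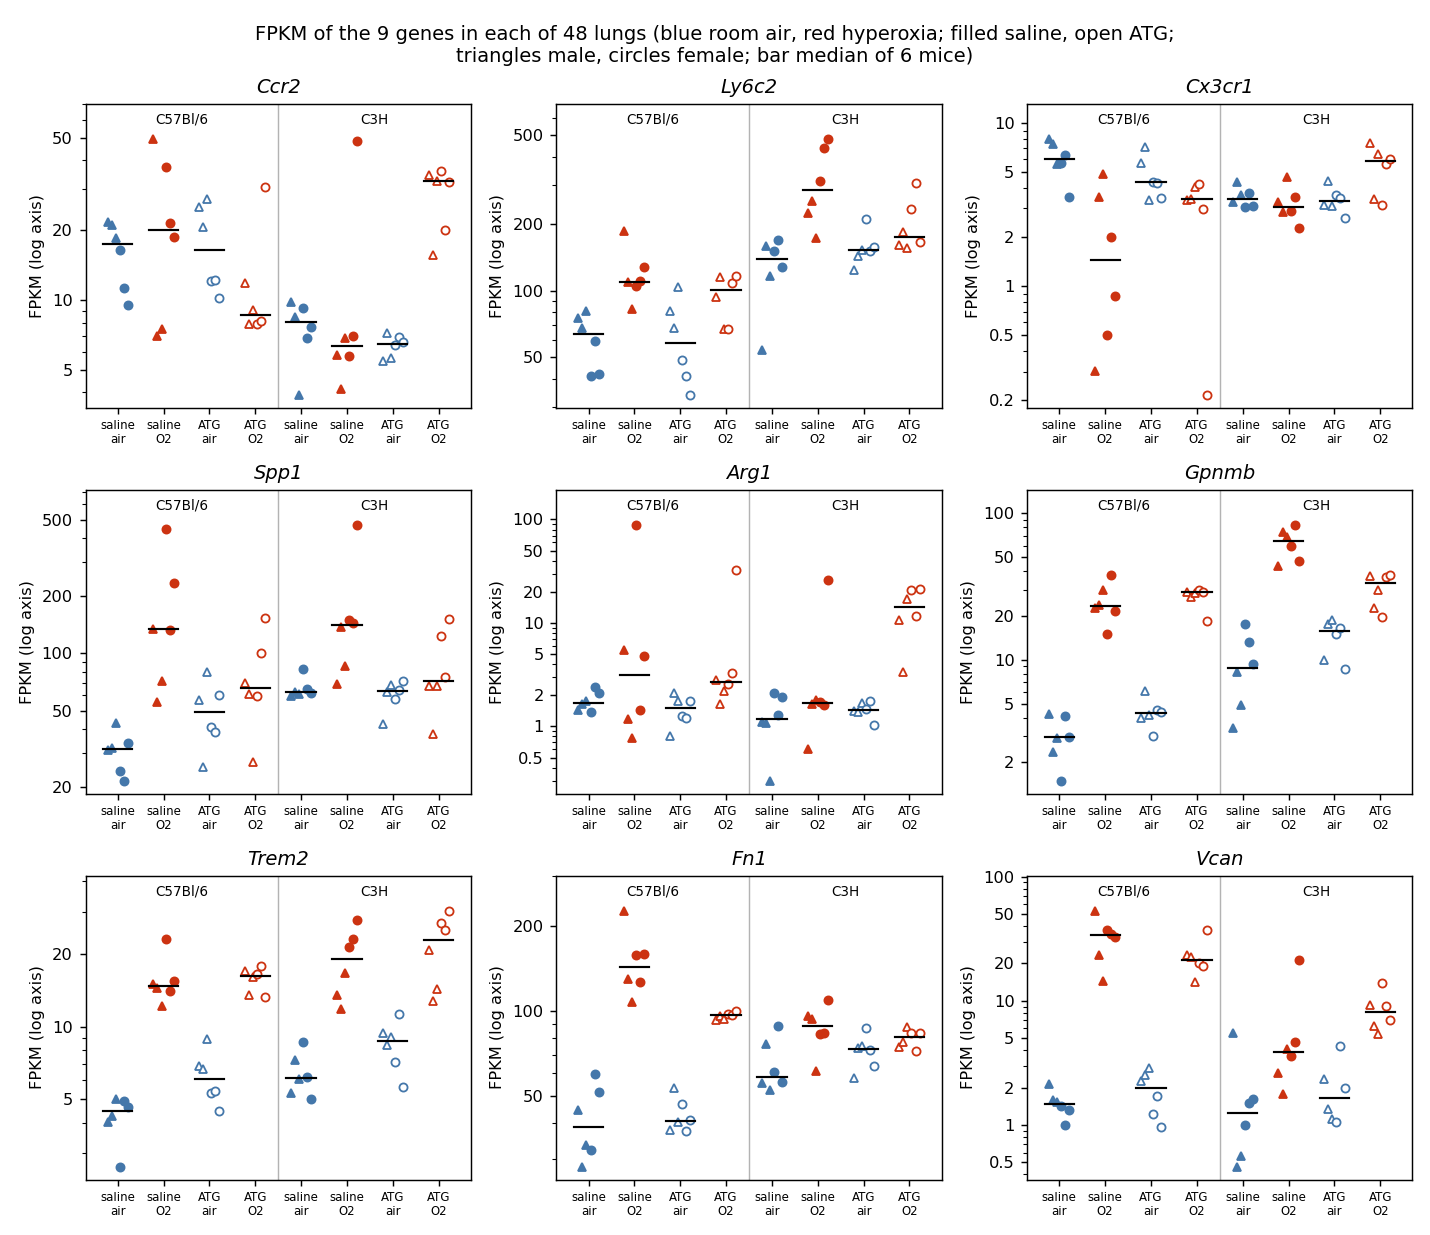
FPKM (log axis) of each of the 9 genes in each of 48 lungs, in blue for room air and red for hyperoxia, filled for saline and open for ATG, with triangles for males, circles for females and a bar at the median of 6 mice. The red points of Trem2 lie above the blue ones within each injection, and Ccr2, Arg1 and Vcan have 1 C3H saline hyperoxia mouse far above the other 5.

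The first comparison asked how the strains differed before injury, in the 12 saline mice in room air. C3H lungs had more of the macrophage genes Spp1 and Gpnmb, of Ly6c2 and of Fn1, and less of the chemokine receptors Ccr2 and Cx3cr1, than C57Bl/6 lungs. In C3H, Spp1 ran from 59.9 to 82.7 FPKM (median 62.4, n = 6), and in C57Bl/6 from 21.4 to 43.0 FPKM (median 31.5). Every C3H mouse was above every C57Bl/6 mouse, and the difference was 1.09 on the log2 scale (SE 0.131, limma adjusted p = 0.000201). All log2 differences here are of log2(FPKM + 1) and all folds are of FPKM + 1, a scale that understates the change of genes at low levels. Trem2 also had no overlap between strains, with 5.03 to 8.66 FPKM in C3H and 2.63 to 5.01 FPKM in C57Bl/6, yet it missed the threshold (0.50, limma adjusted p = 0.0668). Complete separation with the C3H mice on top occurred in 2.14% of the genes tested.

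Gpnmb, a glycoprotein of lysosome-rich phagocytes, had a median of 8.80 FPKM in C3H (3.42 to 17.5) and of 2.96 FPKM in C57Bl/6 (1.49 to 4.26), a log2 difference of 1.25 (SE 0.236, limma adjusted p = 0.00446). Ly6c2 had medians of 138.7 and 63.7 FPKM (1.03, limma adjusted p = 0.00957), with the lowest C3H value, 53.8 FPKM, in mouse 1. Ccr2 was lower in C3H, at 3.90 to 9.85 FPKM against 9.55 to 21.6 FPKM, which overlapped only narrowly (-0.99, limma adjusted p = 0.00576). Cx3cr1 was also lower in C3H (medians 3.45 and 6.04 FPKM, -0.62, limma adjusted p = 0.0153). Thus 4 of the 9 genes were higher and 2 lower in C3H, against 11.8% of all genes past the same threshold (3.92% higher and 7.87% lower). The call for Fn1 (0.66, limma adjusted p = 0.038) was lost when any 1 of mice 3, 14, 15, 25, 26, 37 and 39 was left out (adjusted p 0.0514 to 0.0948), and without mice 1 and 3 both Fn1 (0.82, adjusted p = 0.0532) and Cx3cr1 (-0.53, adjusted p = 0.101) missed it. The Trem2 difference passed without mouse 27 (0.58, limma adjusted p = 0.0451).

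Of other genes fixed as classical monocyte genes, 1 of 16 was higher and 7 were lower in C3H, among them Ifitm6 (-1.65) and Ms4a4c (-1.29). Of all genes, 3.92% were higher and 7.87% lower. Markers of neutrophils moved the same way as Ccr2, with 6 of 10 lower in C3H and a summed level of 140.9 to 317.7 FPKM in C3H against 190.3 to 802.8 FPKM in C57Bl/6. In addition, 4 of 7 T cell and 4 of 5 B cell markers were lower. Their part in the difference in Ccr2 was not tested. None of the 9 genes differed between the sexes in these mice by limma, where 0.669% of all genes did (104 genes, against 3617 at an unadjusted p under 0.05, and 20 to 3640 genes when 1 mouse was left out, the most without mouse 2), and Arg1 was the only one of the 9 with an unadjusted p under 0.05 (male minus female -0.40, adjusted p = 0.192).

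The main comparison asked what 96 h of hyperoxia did in saline mice. The injury macrophage genes Gpnmb, Spp1 and Trem2, the matrix genes Vcan and Fn1, and Ly6c2 rose, Cx3cr1 fell, and Ccr2 and Arg1 did not pass the test. So 6 of the 9 genes were higher and 1 was lower, in an injury in which 60.1% of all genes tested passed the same threshold (31.8% higher and 28.3% lower, a balance that turned under median ratio scaling). The median log2 change of the 9 was 1.14, and of all genes 0.0129.

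Gpnmb had the largest change of the 9 on the log2(FPKM + 1) scale when averaged over the strains, while in C57Bl/6 alone Vcan had a larger one (3.66 against 2.68). In C57Bl/6 mice it was at 1.49 to 4.26 FPKM in room air (median 2.96, n = 6) and at 14.9 to 37.9 FPKM in hyperoxia (median 23.1, n = 6), and in C3H mice at 3.42 to 17.5 FPKM (median 8.80) and 43.9 to 83.0 FPKM (median 64.4). Within each strain every hyperoxia mouse was above every room air mouse, as in 17.0% of all genes in C57Bl/6 and 10.8% in C3H. Over both strains the change was 2.71 on the log2 scale, or 6.55-fold (SE 0.171, limma adjusted p = 7.23e-11).

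Trem2 encodes a receptor by which phagocytes sense lipid and debris. It was the only one of the 9 whose 12 saline hyperoxia mice all lay above all 12 saline room air mice, a pattern that 5.61% of all genes showed. Its level was 2.63 to 5.01 FPKM in C57Bl/6 and 5.03 to 8.66 FPKM in C3H in room air, and 12.2 to 23.1 and 11.9 to 27.7 FPKM in hyperoxia. The change was 1.53 on the log2 scale, or 2.89-fold (SE 0.107, limma adjusted p = 3.19e-10), and was 1.66 in C57Bl/6 and 1.39 in C3H.

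Spp1, which encodes the secreted adhesive protein osteopontin, rose 3.13-fold (log2 1.64, SE 0.212, limma adjusted p = 1.41e-06). Its hyperoxia values were spread widely, from 55.7 to 446 FPKM in C57Bl/6 (median 133) and from 69.1 to 469 FPKM in C3H (median 140.2). The 2 top values were those of C57Bl/6 mouse 43 and C3H mouse 33. The C57Bl/6 hyperoxia mice were all above the room air mice (21.4 to 43.0 FPKM), as in 17.0% of all genes. The C3H sets overlapped (room air 59.9 to 82.7 FPKM).

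Vcan, a large proteoglycan that binds hyaluronan, was near 1 FPKM in room air, with medians of 1.47 FPKM in C57Bl/6 (0.997 to 2.13) and 1.25 FPKM in C3H (0.461 to 5.48). In hyperoxia it reached a median of 33.6 FPKM in C57Bl/6 (14.5 to 53.1) and of 3.88 FPKM in C3H (1.79 to 21.5). All 6 C57Bl/6 hyperoxia mice were far above the room air mice, in a strain in which 17.0% of all genes separated in this direction. The C3H sets overlapped, with room air mouse 1 (5.48 FPKM) above 5 of the 6 hyperoxia mice and below only mouse 33 (21.5 FPKM). The C3H change was not refitted without mouse 33. The change over both strains was 2.44 (SE 0.268, limma adjusted p = 1.76e-07). Fn1, the adhesive matrix protein fibronectin, rose by a mean of 1.14 on the log2 scale (SE 0.137, limma adjusted p = 5.92e-07), from medians of 38.9 FPKM in C57Bl/6 and 58.4 FPKM in C3H to medians of 144 and 88.6 FPKM.

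Ly6c2, which encodes the Ly6C antigen of classical monocytes and also of some vessels, rose 2.16-fold (log2 1.11, SE 0.153, limma adjusted p = 3.22e-06). Its range was 41.2 to 81.1 FPKM in room air and 82.9 to 185 FPKM in hyperoxia in C57Bl/6, and 53.8 to 168.5 and 172 to 482 FPKM in C3H. In neither strain did the ranges of the airs overlap, a rise of this kind being seen in 17.0% of all genes in C57Bl/6 and 10.8% in C3H. Ly6c1, with which it shares sequence, also rose (1.40, limma adjusted p = 2.08e-09), from a median of 261 to 1010 FPKM in C57Bl/6 and of 462 to 859 FPKM in C3H, and how far this entered the Ly6c2 values was not tested.

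Ccr2, the CCL2 receptor, behaved otherwise. In C57Bl/6 its room air range was 9.55 to 21.6 FPKM (median 17.5), and its hyperoxia values were 6.99, 7.49, 18.8, 21.5, 37.6 and 49.5 FPKM. In C3H its room air range was 3.90 to 9.85 FPKM (median 8.05), and its hyperoxia values were 4.14, 5.75, 5.77, 6.87, 7.02 and 48.3 FPKM. In C57Bl/6 the hyperoxia mice thus reached both below and far above the room air mice, and in C3H 5 of them lay within the room air range and 1 far above it, with the top values in mouse 19 (C57Bl/6) and mouse 33 (C3H). The mean change was 0.21 on the log2 scale (95% interval -0.44 to 0.86, limma adjusted p = 0.589), and it was -0.24 without mice 19 and 33.

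Arg1, which turns arginine into ornithine and urea, was low in most saline lungs and high in a few. Its hyperoxia values in C57Bl/6 were 0.771, 1.19, 1.44, 4.78, 5.48 and 88.6 FPKM, the last in mouse 43, against 1.39 to 2.40 FPKM in room air. In C3H, 5 of the 6 hyperoxia mice had 0.601 to 1.80 FPKM and mouse 33 had 25.9 FPKM, against 0.298 to 2.12 FPKM in room air. The change of 0.87 (95% interval -0.10 to 1.83) missed the threshold (limma adjusted p = 0.111) and passed it without mouse 44 (1.14, adjusted p = 0.0252). Over all mice left out in turn it ran from 0.49 to 1.14, with limma adjusted p up to 0.226.

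Cx3cr1 was the one gene of the set that fell, by 0.77 on the log2 scale (SE 0.19, limma adjusted p = 0.00164). In C57Bl/6, 4 of 6 hyperoxia mice, at 0.304, 0.505, 0.874 and 2.01 FPKM, lay below all room air mice (3.52 to 8.00 FPKM), and mice 20 and 21, at 3.55 and 4.87 FPKM, lay among them. In C3H the sets overlapped fully, with 3.08 to 4.36 FPKM in room air and 2.29 to 4.65 FPKM in hyperoxia.

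**Figure D2:**
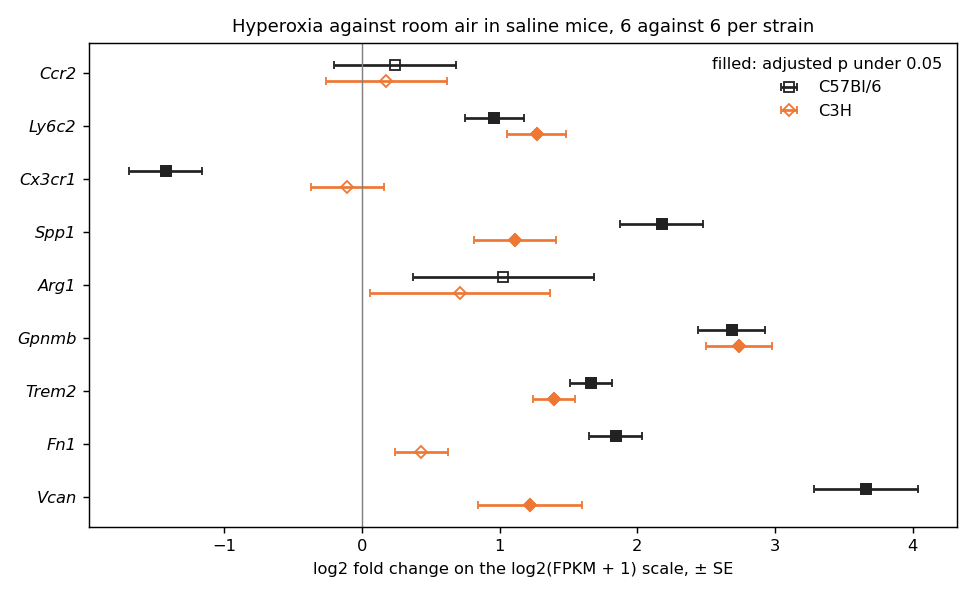
Log2 change with hyperoxia in saline mice for each of the 9 genes, in each strain separately (6 mice against 6, log2(FPKM + 1)), with bars of 1 SE to each side and filled symbols where limma's adjusted p was under 0.05. Vcan and Fn1 stand higher in C57Bl/6 than in C3H, Cx3cr1 stands lower, and Gpnmb and Trem2 are close together.

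Whether hyperoxia acted differently in the strains was tested as the C3H change minus the C57Bl/6 change. Vcan, Fn1 and Cx3cr1 passed, 3 of the 9, where 11.5% of all genes did. On the FPKM + 1 scale Vcan rose 12.6-fold in C57Bl/6 (log2 3.66) and 2.33-fold in C3H (1.22), a difference of -2.44 (SE 0.536, limma adjusted p = 0.00696). The ratio of its mean FPKM in hyperoxia to that in room air was 21.8 in C57Bl/6 and 3.61 in C3H, with mouse 33 included. Fn1 rose 3.59-fold in C57Bl/6, where all hyperoxia mice (107 to 226 FPKM) were above all room air mice (28.0 to 59.8 FPKM), as in 17.0% of all genes. In C3H the Fn1 ranges were 61.3 to 109 and 52.6 to 88.7 FPKM and the change was 0.43 (limma adjusted p = 0.0861), so that the strains differed by -1.41 (SE 0.274, limma adjusted p = 0.00308).

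Cx3cr1 fell by 1.43 on the log2 scale in C57Bl/6 (limma adjusted p = 0.000151) and its change was -0.11 in C3H, a difference of 1.32 (SE 0.379, limma adjusted p = 0.0291). That call was lost when any 1 of mice 9, 32, 37, 38, 43 and 45 was left out (adjusted p 0.05 to 0.0542), without mice 1 and 3 (1.23, adjusted p = 0.0936) and under quantile normalization (1.06, adjusted p = 0.0537), while the sign stayed. The difference for Spp1 (-1.06, limma adjusted p = 0.105) passed without mouse 33 (-1.34, adjusted p = 0.0184) or mouse 44 (-1.28, adjusted p = 0.0474). For Gpnmb the difference was 0.05 (95% interval -0.66 to 0.77), and for Trem2 -0.27 (-0.72 to 0.18). Counted by strain, 7 of the 9 genes passed in C57Bl/6, where 55.5% of all genes did, and 5 in C3H, where 37.8% did.

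The strains were also compared in hyperoxia. Among the 12 saline hyperoxia mice, Ly6c2 (1.33, limma adjusted p = 0.000515) and Gpnmb (1.31, adjusted p = 0.00163) were higher in C3H, and Vcan (-2.48, adjusted p = 0.00107) and Fn1 (-0.76, adjusted p = 0.0106) were lower, that is 4 of 9 against 28.2% of all genes (16.0% higher and 12.2% lower). All 6 C3H mice had more Gpnmb than any C57Bl/6 mouse, as in 6.23% of all genes. Fn1 was therefore higher in C3H than in C57Bl/6 in room air and lower in hyperoxia. Ccr2 did not pass (-1.06, adjusted p = 0.179) and did without mouse 33 (-1.51, adjusted p = 0.0247).

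No member passed the test of a different response in the sexes (male minus female change), a test that 0.0368% of all genes passed (6 genes, against 2964 at an unadjusted p under 0.05, and 2 to 1270 genes when 1 mouse was left out, the most without mouse 2). The largest difference was in Spp1 (-1.49, SE 0.423, limma adjusted p = 0.149). In C57Bl/6 hyperoxia the females had 132, 232 and 446 FPKM of Spp1 and the males 55.7, 71.5 and 134 FPKM, and in C3H the females had 143, 149 and 469 FPKM and the males 69.1, 85.4 and 137 FPKM. In C3H every female was above every male, and in C57Bl/6 the top male was just above the lowest female. The Spp1 call passed without mouse 2 (-1.48, adjusted p = 0.0495) or mouse 19 (-1.67, adjusted p = 0.031). Without mice 19 and 33 both Spp1 (-1.39, limma adjusted p = 0.0309) and Ccr2 (-1.18, adjusted p = 0.0352) passed.

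Many further monocyte and macrophage genes also changed in the saline mice, in which 31.8% of all genes rose and 28.3% fell. Of 28 further genes of lipid-associated and injury macrophages, 24 rose and 2 fell with hyperoxia in saline mice (median 0.87), led by the proteases Ctsk (2.69) and Mmp12 (2.66), the haem-degrading enzyme Hmox1 (2.15) and the lysosomal glycoprotein Cd68 (2.03). Of 16 classical monocyte genes, 9 rose and 4 fell (median 0.79), with Thbs1 (2.90), Cd14 (1.44) and F13a1 (1.42) higher and Lyz2 (-1.46) lower. Of 13 genes listed as nonclassical monocyte genes, 3 rose and 8 fell (median -0.68). Among those that fell were Eno3 (-1.83), Spn (-1.01) and Adgre4 (-0.99), the side on which Cx3cr1 lay. The Fc receptor gene Fcgr4 rose (1.17). Median levels over all mice ran from 0.964 FPKM (Cd300e) to 391 FPKM (Cd36) in this list, and Cx3cr1 was at 3.52 FPKM. Which cells of the whole lung gave the changes of the 13 genes was not tested. By strain, the C3H change was above the C57Bl/6 change in 5 of these 13 by the test of the difference (Nr4a1, Adgre4, Itgal, Spn and Cd36) and below it in none. Of 16321 genes tested, 1422 were above and 458 below, and under quantile normalization 862 and 893 were. Spn (limma adjusted p = 0.0471) and Cd36 (0.0469) passed narrowly. Of the 5 genes, Nr4a1 and Cd36 did not fall over both strains (0.65, limma adjusted p = 0.0488, and -0.068, adjusted p = 0.622).

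The ligands had the highest median change of the lists (1.50), in a comparison in which 31.8% of all genes rose and 28.3% fell. Ccl2, the ligand of CCR2, rose 23.4-fold on the log2(FPKM + 1) scale (log2 4.55, SE 0.575, limma adjusted p = 1.12e-06), and Ccl7 (3.89), Ccl12 (2.68) and the macrophage growth factor Csf1 (1.50) rose with it, 4 of 7 ligands in all with 1 lower. Among receptors for osteopontin, fibronectin and versican, 7 of 10 rose and 2 fell, led by the adhesion molecule Selp (2.00) and the fibronectin receptor subunit Itga5 (1.79). Beside Fn1, the change of Itga5 was lower in C3H than in C57Bl/6 (-2.08, limma adjusted p = 0.00183), and so was that of Itgav (-1.33, adjusted p = 0.00445). Itgav had medians of 10.3 and 23.2 FPKM in room air and hyperoxia in C57Bl/6, and of 12.2 and 12.4 FPKM in C3H.

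Of 10 genes of the versican and hyaluronan matrix, 7 rose and 3 fell, with tenascin C (Tnc, 3.45), the versican-cleaving proteases Adamts4 (3.19) and Adamts1 (1.14), and the hyaluronan synthase Has1 (1.89) at the top. The change of Tnc, like that of Vcan, was lower in C3H (-2.74, limma adjusted p = 0.00597). Of 8 genes of arginine and polyamine metabolism, 5 rose and 2 fell, led by Odc1 (2.71), which uses the ornithine that arginase makes, and the arginine transporter Slc7a1 (1.78). Of 8 genes of alternative activation, 7 rose and none fell, among them Chil3 (2.14) and Ccl17 (1.86), in lungs whose Arg1 did not pass. Retnla, among the 7 (1.02, limma adjusted p = 0.0272), lost its call when any 1 of 6 of the 24 mice was left out (adjusted p up to 0.0577). Its C3H minus C57Bl/6 difference was 2.33 (limma adjusted p = 0.0536). Over all genes the median was 0.0129, with 31.8% higher and 28.3% lower, and these lists were not tested as sets.

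**Figure D3:**
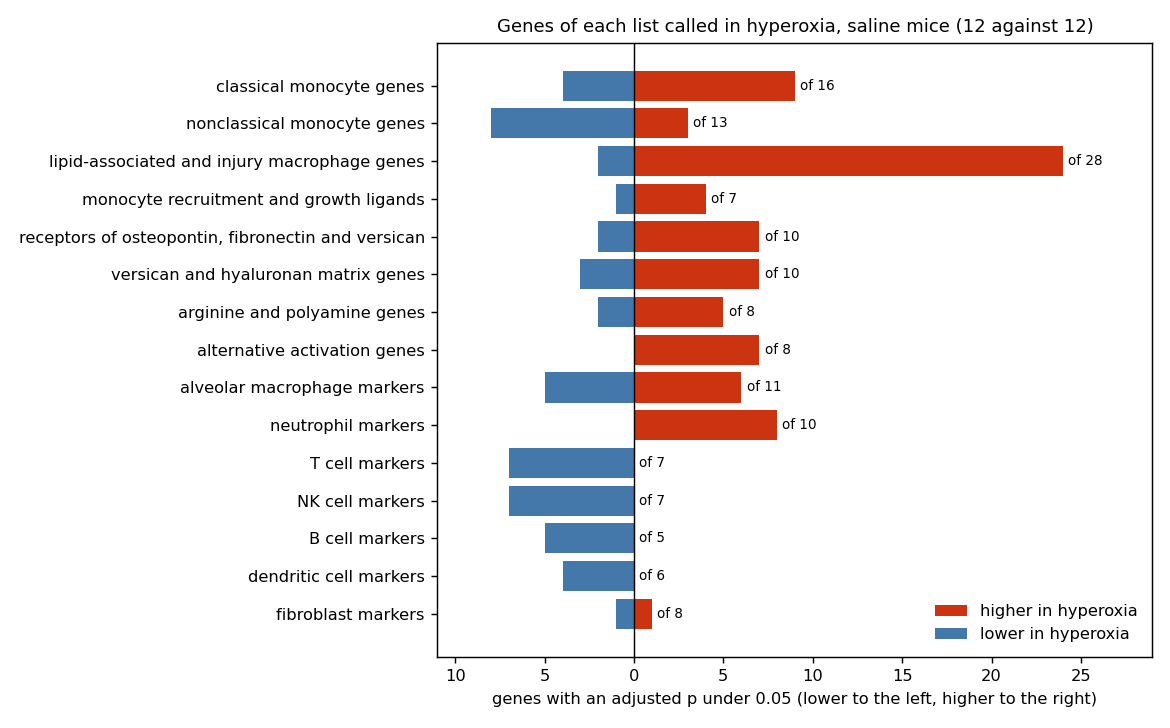
Number of genes of each list with a limma adjusted p under 0.05 for hyperoxia against room air in saline mice (12 against 12), with red bars to the right for higher and blue bars to the left for lower, and the number of genes tested beside each bar. The injury macrophage list has 24 of 28 genes to the right, and the T cell and NK cell markers have all 7 to the left. Of all genes, 31.8% were higher and 28.3% lower.

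Other cell types moved in the same lungs, in which 31.8% of all genes rose and 28.3% fell. Of 10 neutrophil markers 8 rose, their sum being 140.9 to 802.8 FPKM (median 288.3) in saline room air and 170.1 to 6397 FPKM (median 905.9) in saline hyperoxia, and Ly6g and Camp were at 0 in 8 and 4 of the 48 mice. Of 11 alveolar macrophage markers 6 rose and 5 fell (summed medians 614.7 and 955.5 FPKM), with Chil3, which is also on the alternative activation list, among those that rose. All 7 T cell, all 7 NK cell and all 5 B cell markers fell. Of 8 fibroblast markers, 1 rose (Pdgfra, 1.32) and 1 fell (Tcf21, -1.82), with summed medians of 481.6 FPKM in room air and 493.2 FPKM in hyperoxia. Of 4 smooth muscle markers, Tagln (1.09) and Acta2 (0.77) rose and none fell, with summed medians of 187.4 and 321.7 FPKM. Red blood cell and heart muscle genes fell steeply (3 of 3 and 4 of 4), and 4 of 5 lung defining genes fell. Their part in the changes of the 9 genes was not tested.

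The next comparison repeated hyperoxia against room air in the 24 ATG mice. There 7 of the 9 genes rose and none fell, against 61.8% of all genes past the threshold (35.8% higher and 26.0% lower). Vcan (2.34, limma adjusted p = 9.83e-11), Arg1 (1.75, 2.56e-05), Gpnmb (1.71, 1.67e-09), Trem2 (1.22, 9.27e-10), Ccr2 (0.69, 0.0021), Fn1 (0.66, 3.06e-08) and Ly6c2 (0.49, 0.00115) passed, each value a log2 change with its limma adjusted p. Spp1 did not (0.46, adjusted p = 0.0559, and 0.0154 to 0.0428 without any 1 of mice 11, 18, 24, 35, 42 and 46), nor did Cx3cr1 (-0.05, 95% interval -0.45 to 0.34). All 12 ATG hyperoxia mice lay above all 12 ATG room air mice for Trem2 and Vcan, as in 8.82% of all genes.

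Ccr2 and Arg1 both rose in the C3H ATG mice. There Ccr2 was at 5.49 to 7.19 FPKM (median 6.47, n = 6) in room air and at 15.6 to 35.9 FPKM (median 32.5, n = 6) in hyperoxia, and Arg1 at 1.02 to 1.76 FPKM (median 1.44) and 3.35 to 21.3 FPKM (median 14.4). Every C3H hyperoxia mouse was above every room air mouse in both genes, as in 17.4% of all genes. The changes were 1.95 for Ccr2 (limma adjusted p = 2.54e-06) and 2.46 for Arg1 (adjusted p = 5.08e-05), where 47.9% of all genes passed. In C57Bl/6 ATG mice Ccr2 was at 10.2 to 27.2 FPKM (median 16.4) in room air, and in hyperoxia at 7.90 to 11.9 FPKM in 5 mice and 30.8 FPKM in mouse 48, a change of -0.56 (adjusted p = 0.0661). Arg1 there was 1.65 to 3.29 FPKM in 5 hyperoxia mice and 32.4 FPKM in mouse 48 (1.05, adjusted p = 0.0359, where 56.2% of all genes passed). Whether these changes differed between the strains was not tested within the ATG mice.

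In room air ATG alone moved none of the 9 genes past limma's threshold, and 0.0185% of all genes (3 genes, against 1077 at an unadjusted p under 0.05). Gpnmb (0.56, unadjusted p = 0.00241, adjusted p = 0.45) and Trem2 (0.40, unadjusted p = 0.00139, adjusted p = 0.437) had the smallest p by limma, and both were higher with ATG. Gpnmb had medians of 15.7 FPKM with ATG and 8.80 FPKM with saline in C3H, and of 4.31 and 2.96 FPKM in C57Bl/6, with overlapping ranges in both strains.

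In hyperoxia, mice given ATG had less Spp1 and less Fn1 than mice given saline, and these 2 of the 9 genes passed narrowly, where 5.47% of all genes did (1.58% lower). Spp1 was 27.0 to 152 FPKM (median 65.4) with ATG and 55.7 to 446 FPKM (median 133) with saline in C57Bl/6, and 37.8 to 151 FPKM (median 71.2) and 69.1 to 469 FPKM (median 140.2) in C3H. The ranges overlapped in both strains, and the difference was -0.92 (SE 0.257, limma adjusted p = 0.0422). Fn1 was 92.5 to 100.1 FPKM with ATG in C57Bl/6, below every saline mouse (107 to 226 FPKM), a separation seen in 0.378% of all genes. In C3H its ranges overlapped (72.3 to 87.8 and 61.3 to 109 FPKM), and the difference over both strains was -0.36 (SE 0.101, limma adjusted p = 0.0446).

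Both calls depended on single mice. The Spp1 call was lost when any 1 of 15 of the 24 mice was left out and the Fn1 call when any 1 of 18 was (adjusted p up to 0.0831 and 0.0864), and neither passed with no filter on low values (adjusted p = 0.0744 and 0.0729), while both signs stayed. Without mice 19 and 33 Spp1 did not pass (-0.69, limma adjusted p = 0.0783) and Ccr2 did (0.88, adjusted p = 0.0228). Ly6c2 (-0.46, adjusted p = 0.0585) passed when any 1 of mice 9, 21, 31 and 35 was left out (adjusted p 0.0273 to 0.0478), and Gpnmb (-0.44, adjusted p = 0.0965) without mouse 43 (-0.52, adjusted p = 0.0494). Trem2 (0.09, 95% interval -0.10 to 0.29) and Vcan (0.13, -0.37 to 0.63) had differences near 0.

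**Figure D4:**
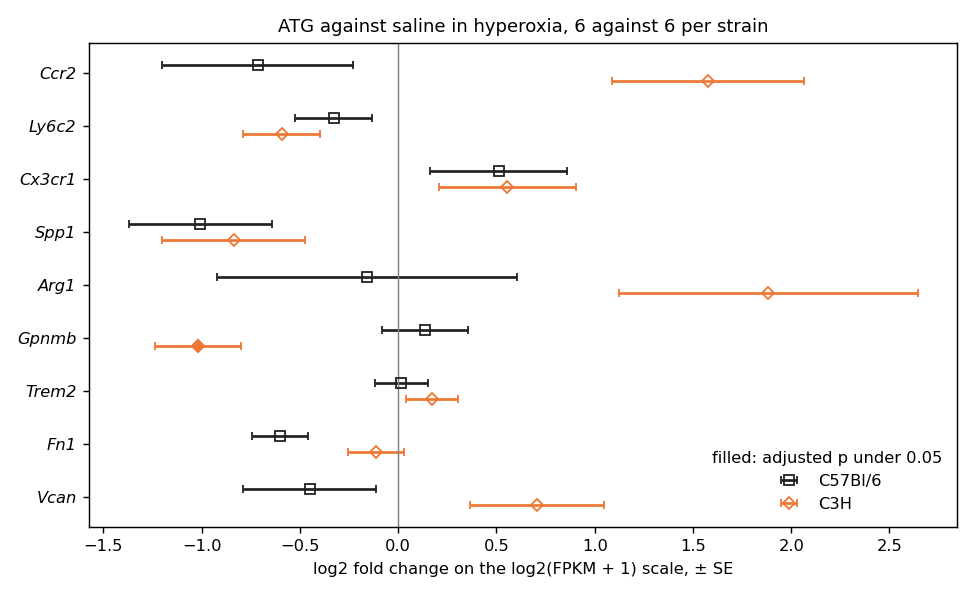
Log2 difference of ATG minus saline in hyperoxia for each of the 9 genes in each strain (6 mice against 6, log2(FPKM + 1)), with bars of 1 SE to each side and filled symbols where limma's adjusted p was under 0.05. Ccr2 and Arg1 lie above 0 in C3H and below it in C57Bl/6, and Gpnmb lies below 0 in C3H only.

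Gpnmb and Spp1 were the members in which ATG acted differently in room air and in hyperoxia. The ATG difference in hyperoxia minus that in room air was -0.999 for Gpnmb (SE 0.23, limma adjusted p = 0.0163) and -1.18 for Spp1 (SE 0.307, adjusted p = 0.0306), 2 of 9 against 2.77% of all genes (1.21% in this direction). The Spp1 call was lost without any 1 of mice 8, 24, 27 and 42 (adjusted p 0.0504 to 0.0538), and without mice 1 and 3 both genes just missed it (Gpnmb -0.86 with adjusted p = 0.0505, and Spp1 -1.18 with adjusted p = 0.0561). Calls were gained for Ly6c2 without mouse 2 (adjusted p = 0.023) or 21 (0.0456), for Fn1 without mouse 2, 9, 21 or 26 (0.04 to 0.0487), and for Cx3cr1 without mouse 48 (0.0422).

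The drop in Gpnmb with ATG in hyperoxia was seen in C3H. There ATG mice had 19.6 to 38.1 FPKM (median 33.2) and saline mice 43.9 to 83.0 FPKM (median 64.4), with no overlap, as in 0.575% of all genes, and a difference of -1.02 (limma adjusted p = 0.0155, where 2.65% of all genes passed). In C57Bl/6 the medians were 28.8 and 23.1 FPKM and the difference 0.14 (adjusted p = 0.772). Ccr2 went the other way, with 32.5 FPKM (15.6 to 35.9) with ATG and 6.32 FPKM (4.14 to 48.3) with saline as medians in C3H (1.58, adjusted p = 0.0908), and 8.61 and 20.2 FPKM in C57Bl/6 (-0.72, adjusted p = 0.433). All 6 C3H ATG mice had more Ccr2 than 5 of the 6 C3H saline mice and less than mouse 33.

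The strain difference in the response to ATG, added after these values were seen, passed for none of the 9 genes, where 0.416% of all genes passed (66 genes, against 2110 at an unadjusted p under 0.05). Its C3H minus C57Bl/6 values were 2.29 for Ccr2 (95% interval 0.85 to 3.73, limma adjusted p = 0.152), 2.04 for Arg1 (adjusted p = 0.421) and -1.16 for Gpnmb (adjusted p = 0.102). Leaving out mouse 33 gave 3 calls, as without it Ccr2 (2.75, limma adjusted p = 0.0208), Gpnmb (-1.25, adjusted p = 0.0457) and Vcan (1.51, adjusted p = 0.0469) passed. Gpnmb also passed without mouse 44 (-1.33, adjusted p = 0.0366), while Arg1 passed with no single mouse left out (lowest adjusted p = 0.167). The 66 genes became 37 to 302 when 1 mouse was left out, the most without mouse 33. Of the classical monocyte genes, Ms4a4c passed in the full set (3.06, adjusted p = 0.0142).

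Beside these ATG differences, 4 of 10 alveolar macrophage markers tested fell with ATG in hyperoxia, where 5.47% of all genes passed (1.58% lower). The sum of the markers in C3H was 255 to 616.5 FPKM (median 287) with ATG and 496.5 to 1128 FPKM (median 631.4) with saline. No neutrophil marker passed, though the sums spread widely, from 170.1 to 5009 FPKM in C57Bl/6 saline and 243 to 1116 FPKM in C57Bl/6 ATG mice. Their part in the ATG differences was not tested. Of the 28 injury macrophage genes 3 were higher with ATG, among them Ms4a7 (0.76) and the growth factor Igf1 (0.58), and 2 were lower. Of 8 alternative activation genes 2 were lower, Chil3 (-0.83) and the mannose receptor Mrc1 (-0.43), and no ligand passed. Chil3 is also on the alveolar macrophage list, so it enters both counts and the sum of those markers.

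Mice of the same group differed in step across several of the genes. In the 24 hyperoxia mice, after the mean of each group was taken away, 36 pairs of members were compared, with 100000 permutations of mice within groups. Ccr2 and Arg1 had r = 0.79 and rho = 0.84 (permutation p = 0.00084 and 0.00055, adjusted over 36 pairs 0.0101 and 0.0078), and r = 0.77 without the 2 mice farthest out. Here and below, these were the 2 mice farthest out in the first gene named, left out after the group means were taken. Their group mates were still measured from means that included them. The values without 2 mice therefore cannot show that a tie holds without them. Spp1 and Arg1 had r = 0.83 and rho = 0.82 (permutation p = 0.00018 for both, adjusted 0.00342 and 0.00648, r = 0.77 without 2 mice). Ccr2 was also tied to Vcan (r = 0.86, rho = 0.77, permutation adjusted p = 0.0175 and 0.0195, r = 0.74 without 2 mice) and to Spp1 (r = 0.75, rho = 0.70, adjusted p = 0.0128 and 0.0147, r = 0.65 without 2 mice).

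Cx3cr1 went against the matrix gene and with Gpnmb. With Fn1 it had r = -0.67 and rho = -0.66 (permutation adjusted p = 0.0175 and 0.0317, r = -0.60 without 2 mice), and with Gpnmb r = 0.67 and rho = 0.71 (adjusted p = 0.00342 and 0.0078, r = 0.73 without 2 mice). Spp1 and Fn1 had r = 0.54 and rho = 0.62 (adjusted p = 0.0467 and 0.0317). Of the same 36 pairs in the 24 room air mice, none passed after adjustment. Each pair was measured in the same libraries, so whatever differs between whole libraries is part of these values.

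The CCR2 ligand followed the same mice. Ccl2 was 699.8 FPKM in mouse 33, the one C3H saline hyperoxia mouse with high Ccr2 and Arg1, and 3.09 to 31.6 FPKM in the other 5. In C57Bl/6 saline hyperoxia it was 989 FPKM in mouse 19, 559 FPKM in mouse 45, 354 FPKM in mouse 43 and 238 FPKM in mouse 44, and 24.1 and 15.1 FPKM in mice 20 and 21, which also had the lowest Ccr2 of that set. The 6 C3H ATG mice all had high levels of Ccl2, at 120.4 to 301 FPKM, and in C57Bl/6 ATG mice it was 35.7 to 98.1 FPKM in 5 mice and 333 FPKM in mouse 48.

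**Figure D5:**
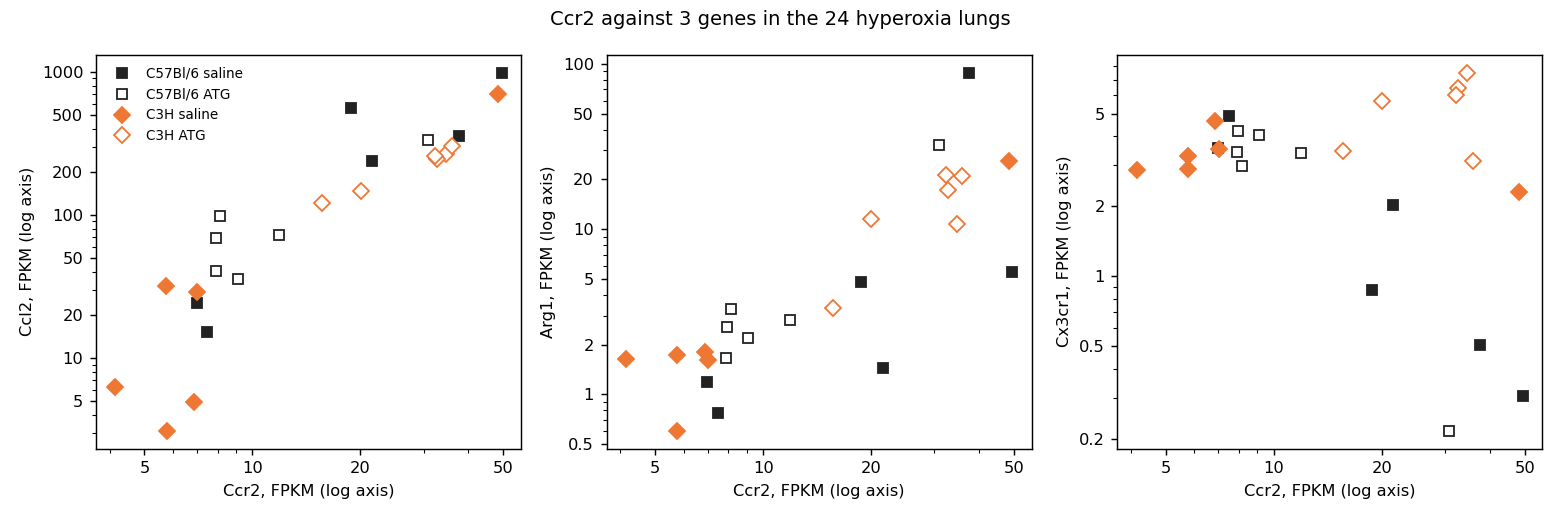
Ccl2, Arg1 and Cx3cr1 against Ccr2 in the 24 hyperoxia lungs, all as FPKM on log axes, with squares for C57Bl/6 and diamonds for C3H, filled for saline and open for ATG. Ccl2 is high where Ccr2 is high, and the 4 lowest values of Cx3cr1 are in C57Bl/6 mice with 18.8 FPKM or more of Ccr2.

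Across all 48 mice and 16994 genes, the genes most like each member in Pearson's r of log2(FPKM + 1) were taken as a description, since mice share strain, air and injection. Ccr2 was most like Ms4a6c (r = 0.95, and 0.96 within groups), and Arg1 most like the inhibitory Fc receptor gene Fcgr2b (0.87, and 0.85 within groups). Both also had the leukotriene B4 receptor gene Ltb4r1 among their top 3 (0.89 and 0.86). Gpnmb was most like the protease gene Ctsk (0.93, and 0.54 within groups), and Trem2 like the protease gene Ctsb and the scavenger receptor gene Msr1 (0.92 and 0.91). Vcan was most like the glucose transporter gene Slc2a1 (0.94, and 0.76 within groups), Fn1 like Nolc1 and Wisp1 (0.89 each), Spp1 like Fmnl2 (0.84) and Cx3cr1 like Asap3 (0.80). Ly6c2 was most like 3 gene models, Gm15487, Gm9825 and Rps2-ps10 (0.88, 0.86 and 0.83), whose r within groups was 0.36 to 0.48.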

How the data were processed

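Whole lung RNA of 48 mice was sequenced from directional mRNA libraries as paired reads. Per the labels and the study's methods, the authors aligned reads to mm10 with GSNAP and made FPKM values with Cufflinks. The deposited FPKM table holds 47561 genes, of which 20454 are at 0 in all mice. Absolute depth is unknown, so no counting interval is given. The gene Akap5, with a failed estimate in 7 mice, was dropped.

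Differences were tested with limma 3.58.1 in R 4.3.3 on log2(FPKM + 1), with a mean for each group of strain, sex, injection and air, a trend in the prior variance, genes at 1 FPKM or more in at least 3 of the mice compared, and Benjamini-Hochberg adjustment over all genes tested at 0.05. Changes average over strain and sex unless a strain is named. The fit was tested on simulated data. The members and lists were chosen with earlier results of these data known. Text names the 9 members, up to 4 passing genes a list with the largest change for hyperoxia in saline mice and up to 2 elsewhere, and the 3 genes most correlated with each member. Ccl2 by mouse, the genes that share sequence with a member, and leaving out mice 1 and 3 or mice 19 and 33 were chosen after values were seen. Other alternatives were a pseudocount of 0.1, other filters and scalings, no trend, all 48 mice in 1 fit, 1 strain or sex, and each mouse left out. Promoters came from RefSeq (GRCm38.p6), which matched 7 of the 9 genes (Arg1 and Fn1 had no entry), and gene positions from GENCODE M21. Python 3.11.15 was used for the rest.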

Additional observations from a re-analysis of the deposited data

Results flagged for a closer look

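In 72 sets of 6 mice (9 genes, 8 sets), Dixon's ratio passed its 95% critical value in 12. Chance alone flags about 1 set in 20 only where the values are normally distributed. These were FPKM values of both sexes, with the same mice in every gene, so the 12 cannot be judged against that rate. Mouse 33, a C3H female in saline hyperoxia, was far above the other 5 mice of its set in Ccr2 (48.3 FPKM), Spp1 (469.0 FPKM), Arg1 (25.9 FPKM) and Vcan (21.5 FPKM). Mouse 48, a C57Bl/6 female in ATG hyperoxia, was far above its set in Ccr2 (30.8 FPKM) and Arg1 (32.3 FPKM) and far below it in Cx3cr1 (0.216 FPKM) and Gpnmb (18.3 FPKM). Mouse 43, a C57Bl/6 female in saline hyperoxia, stood above its set in Arg1 (88.6 FPKM) and Trem2 (23.0 FPKM). In C3H saline room air, mouse 25 stood above its set in Spp1 (82.7 FPKM) and mouse 1 in Vcan (5.48 FPKM).

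The response to hyperoxia differed between the strains (C3H minus C57Bl/6, log2) in Cx3cr1 (1.32), Fn1 (-1.41) and Vcan (-2.44), by limma's test of the difference. The ATG difference in hyperoxia minus that in room air passed the same kind of test in Spp1 (-1.18) and Gpnmb (-0.999).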

How the results depend on the processing

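No paired analysis was possible because every mouse has its own number in the labels. Depth is unknown and 6 mice a set limit each strain's values. Of the 9 genes, the count past the threshold stayed within 1.5 times its value for hyperoxia in saline and in ATG mice, for both strain comparisons, for hyperoxia by strain, and for ATG and sex in room air under the alternatives run on all mice. Leaving out each mouse in turn gave 7 to 8 genes for hyperoxia in saline mice, 2 to 4 by strain, 0 to 1 by sex, 7 to 8 in ATG mice, 0 for ATG in room air, 0 to 3 for ATG in hyperoxia, 1 to 4 for ATG by air, 0 to 3 for ATG in hyperoxia by strain, 5 to 7 and 4 to 5 for strain in saline room air and hyperoxia mice, and 0 for sex. For ATG in hyperoxia 0 genes passed with the filter at 0.1 FPKM in 3 mice, with no filter, with no trend, in C57Bl/6, in males or in females alone, and 1 in C3H alone. For ATG by air 1 passed with no filter and 0 without mice 1 and 3. Without mice 19 and 33, 2 passed for hyperoxia by sex and 2 for ATG in hyperoxia by strain, where 1 passed with all 48 mice fitted.

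Directions changed as follows, in log2 units, for the 9 genes with hyperoxia in saline and in ATG mice, with ATG in hyperoxia and, by strain, with ATG in room air, and the cause was not tested. The change of Ccr2 with hyperoxia in saline mice was -0.39 in males, -0.24 without mice 19 and 33, -0.010 without mouse 19 and -0.021 without mouse 33 (-0.021 to 0.34 over all mice left out), and Retnla's was -0.15 in C57Bl/6. With hyperoxia in ATG mice, Cx3cr1 was 0.50 in C3H, 0.052 in males, and 0.016, 0.0063 and 0.10 without mouse 11, 34 or 48, Ccr2 was -0.56 in C57Bl/6, and Spp1 was -0.013 in males. ATG in room air gave -0.11 for Spp1 and 0.14 for Arg1 in C3H, and 0.083 for Ccr2 and -0.022 for Ly6c2 in C57Bl/6. ATG in hyperoxia gave -0.72 for Ccr2, -0.16 for Arg1, 0.14 for Gpnmb and -0.45 for Vcan in C57Bl/6, and -0.073 for Vcan in females.

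Scaling turned no direction of the 9 genes with hyperoxia in saline mice, with hyperoxia in ATG mice or with ATG in hyperoxia. In the other comparisons only members with a low unadjusted p were checked, and none of them turned. Small differences of the other members may have turned. Quantile normalization moved the median of all genes by -0.165 for hyperoxia by strain, -0.125 by sex, and 0.112 and 0.115 for strain and sex in saline room air mice, and median ratio scaling by -0.11, -0.113 and -0.103 for hyperoxia by strain, by sex and in ATG mice. The share of calls that were higher went from 75.6% to 49.1% (quantile) and 54.7% (median ratio) for hyperoxia by strain, from 83.3% to 25% and 50% by sex, from 71.1% to 45.6% and 43.6% for ATG in hyperoxia, from 56.4% to 34.7% and 35.3% for ATG by air, from 33.2% to 51.2% and 43.9% for strain, and from 35.6% to 55.2% and 48.7% for sex, in ATG hyperoxia from 57.9% to 46.4% (median ratio), and in saline hyperoxia from 53% to 50.9% and 44.2%. Under these scalings Trem2 passed for strain in room air (adjusted p = 0.0164 and 0.0251), Ly6c2 passed for ATG in hyperoxia (quantile, 0.0321), and Cx3cr1 for strain in room air (0.0537) and Ly6c2 for hyperoxia in ATG mice (0.0562) did not under quantile normalization.

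Leaving out 1 mouse gave 1400 to 3242 genes for hyperoxia by strain (1880), 1306 to 4021 for strain in room air (1832), 3 to 32 for ATG in room air (3) and 243 to 1093 for ATG by air (470), the highest each time without mouse 2, and 443 to 1096 for ATG in hyperoxia (868). Under other alternatives, counts over all genes moved by more than 1.5 times in these cases. Hyperoxia in saline mice gave 5164 genes in C3H and 6403 in males (9803 in all). With all 48 mice fitted, hyperoxia by strain gave 2994 (1880), by sex 306 (6), strain in room air 2982 (1832), sex 1915 (104) and ATG in hyperoxia by strain 234 (66). Without mice 19 and 33 the last gave 287 and hyperoxia by sex 627, which had 2 under median ratio scaling. ATG in room air (3) gave 5 with no filter or without mice 1 and 3, 0 in C3H, 1 in males, and 7 in C57Bl/6 or females. ATG in hyperoxia (868) gave 280 in C3H, 1 in C57Bl/6, 0 in males and 9 in females, ATG by air (470) gave 313 with no filter, and sex (104) gave 60 and 40 with looser or no filter and 30 without mice 1 and 3.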

Other observations

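Other monocyte and macrophage genes differed between the strains in saline room air lungs in directions of their own. Chil3, a chitinase-like protein of alveolar and alternatively activated macrophages, was lower in C3H (-1.88 on the log2 scale, limma adjusted p = 0.0004), as were the chemokine gene Ccl17 (-1.60, adjusted p = 0.000576), the ornithine decarboxylase gene Odc1 (-1.29, adjusted p = 0.000927), the mitochondrial arginase gene Arg2 (-1.04, adjusted p = 0.00168) and the macrophage protease gene Mmp12 (-1.04, adjusted p = 0.00229), in lungs where Spp1 and Gpnmb were higher. The change of Mmp12 with hyperoxia was higher in C3H than in C57Bl/6 (2.20, adjusted p = 0.00183) and that of Hmox1 lower (-1.42, adjusted p = 0.0114).

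Chil3 also had a large ATG by air difference (-1.63, limma adjusted p = 0.00281). In C3H hyperoxia it was 52.4 to 361 FPKM with ATG (median 68.6) and 180 to 465 FPKM with saline (median 260), and in C57Bl/6 608 to 1510 FPKM (median 1070) and 651 to 1590 FPKM (median 1310). Fcgr4, a nonclassical monocyte gene, moved the same way (-1.15, adjusted p = 0.00454), as did Lpl (-0.82, adjusted p = 0.00714). With hyperoxia in ATG mice, Ccl2 rose by 5.73, Ccl7 by 4.97 and Tnc by 3.67 on the log2 scale. In the same mice 10 of 13 genes listed as nonclassical monocyte genes fell, where 26.0% of all genes did. Which cells gave these falls was not tested.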
